A study of Drosophila melanogaster with 16 samples.

Results

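Old dFOXO-null females were compared with old wildtype females, using the 4 libraries of 31-day-old females among the 16 libraries of total small RNA. The dFOXO-null group (strain and genotype wDah;dfoxo{delta}94) and the wildtype group (wDah) had 2 replicate libraries each, and each RNA extraction used 40 whole mated females. The null allele is a deletion left by imprecise excision of a P element and was backcrossed to wDah, so each genotype is represented by a single stock. Flies of all groups carried the white mutation of wDah, were kept at 25°C on banana agar, and were housed with the other sex of their own genotype. Within a genotype and replicate, the young flies (5 days in replicate 1 and 6 days in replicate 2) were siblings of the old flies. All named values below are given with replicate 1 before replicate 2. The paper calls the replicates biological, but the labels do not say whether they came from separate cultures, so p-values measure only the spread between these libraries. RPM stands for reads per 1000000 mapped reads of the same table, without spike-ins.

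dFOXO is the fly FOXO transcription factor, which is held in the cytoplasm by insulin signalling and enters the nucleus when signalling is low. MicroRNAs (miRNAs) are cut from hairpin precursors, and either the 5p or the 3p arm can be loaded into an Argonaute protein, mainly Ago1, to repress messenger RNAs. Small interfering RNAs (siRNAs) against transposons are cut by Dicer-2 to 21 nt, act through Ago2, and lower transposon RNA in the body. PIWI-interacting RNAs (piRNAs) of the ovary are longer, and the shortest of them can fall among reads of 19 to 25 nt.

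The libraries differed in depth, with 4809933 and 1428060 reads of 19 to 25 nt in dFOXO-null old females and 8344038 and 1082684 in wildtype old females. Reads of 21 nt numbered 568650 and 205669 in dFOXO-null females, against 1041456 and 202623 in wildtype females, and reads on dm6 transcripts 3557336 and 1133759, against 4000996 and 1448761. Spike-in reads of 19 to 25 nt numbered 194 and 678 in dFOXO-null females and 795 and 1146 in wildtype females. At 21 nt they numbered 10 and 21 against 43 and 50. Spike-in scaling below rests on these few reads, and for dm6 transcripts it used those of 19 to 25 nt. The dFOXO gene foxo (chromosome 3R, 14056945 to 14087978, + strand, dm6) had 0 transcripts in the table of dm6 reads, so the genotypes could not be checked there. Of the sex markers, the yolk protein genes Yp1, Yp2 and Yp3 and 7 testis or accessory gland genes also had no transcript in that table. The miRNAs of the ovary, miR-318, miR-994 and miR-989, which mark follicle cells and germ line, summed to 27570 and 17524 RPM in dFOXO-null females and 12815 and 20651 RPM in wildtype females, and 0 of their 4 arms passed an unadjusted p of 0.05. Reads on miRNAs were 90.4% and 83.4% of mapped reads in dFOXO-null females and 85.1% and 76.5% in wildtype females, and reads on transposons 9.58% and 16.6% against 14.9% and 23.5%. In these whole flies, fewer cells of a type and less RNA per cell cannot be told apart.

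Among 208 miRNA arms of 19 to 25 nt reads, 3 passed an adjusted p of 0.05 by edgeR's quasi-likelihood test (1.44% of those tested). The arm miR-964-5p rose, and miR-9370-5p and miR-4969-5p fell. At an unadjusted p under 0.05 by the same test, 17 arms were higher (8.17%) and 13 lower (6.25%). Both dFOXO-null libraries were above both wildtype libraries for 29 arms (13.9%) and below them for 31 (14.9%), and 23 of these (11.1%) and 17 (8.17%) had means at least 2-fold apart. Without any difference between groups, 2 libraries against 2 separate by chance at a rate of 0.333, both directions together. This rate applies to each count without overlap below that uses all 4 libraries. The median arm had a log2 fold change of -0.22. The number of adjusted calls was 0 without dFOXO-null replicate 1, 0 without dFOXO-null replicate 2, 1 without wildtype replicate 1 and 7 without wildtype replicate 2. In the same order, the arms with means 2-fold apart and no overlap numbered 74, 70, 88 and 101, against 40 with all 4 libraries.

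miR-964-5p had 740 and 164 reads in dFOXO-null old females, which is 154 and 115 RPM, against 218 and 22 reads in wildtype old females, which is 26.1 and 20.3 RPM. The groups did not overlap, and the log2 fold change was 2.52 ± 0.58 (SE, adjusted p = 0.0451, edgeR). The call was lost when any of the 4 libraries was left out, with log2 fold changes of 2.29 to 2.72 and adjusted p of 0.0878 to 0.169 in edgeR. Its hairpin lies on chromosome 2L (5642102 to 5642201, + strand, dm6), at the end of a cluster that starts with mir-959 at 5640940. This cluster is known for transcription that follows the clock and feeding time, and its miRNAs have been tied to feeding and innate immunity.

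Of the cluster's 6 hairpins, 5 had reads, and all 9 of their arms were measured and passed the filter on low counts. All 9 arms had a log2 fold change above 0, also with TMM, spike-in or DESeq2 scaling. The median was 1.77 beside -0.22 over all 208 arms. Of all 208 arms, 53.8% lay above 0 with TMM, 84.1% with spike-in and 47.1% with DESeq2 scaling. In that order, the medians of the cluster were 1.96, 3.12 and 1.76, beside 0.13, 1.14 and -0.04 over all arms. By edgeR, 1 arm rose at an adjusted p under 0.05 and 4 had an unadjusted p under 0.05, all of them higher. For 7 of the 9 arms both dFOXO-null libraries were above both wildtype libraries. Over all 208 arms 8.17% were higher at that p and 13.9% without overlap. The summed level of the cluster was 226 and 168 RPM in dFOXO-null females and 43.6 and 45.3 RPM in wildtype females, so the genotypes stood apart while the replicates lay close together.

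The other arms of the cluster were rare. miR-960-5p had 74 and 20 reads in dFOXO-null females and 28 and 4 in wildtype females (log2 fold change 2.07 ± 0.56 SE, adjusted p = 0.0814, edgeR). miR-961-5p had 122 and 11 reads against 37 and 0. miR-960-3p, the opposite arm of the same hairpin, had 25 and 9 reads against 13 and 2. The libraries of the genotypes overlapped for miR-961-3p (8 and 4 reads in dFOXO-null females, 8 and 2 in wildtype females) and for miR-964-3p (11 and 7 against 23 and 4). The arm that carried most of the cluster's reads, miR-964-5p, was thus also the arm with the smallest p.

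**Figure D1:**
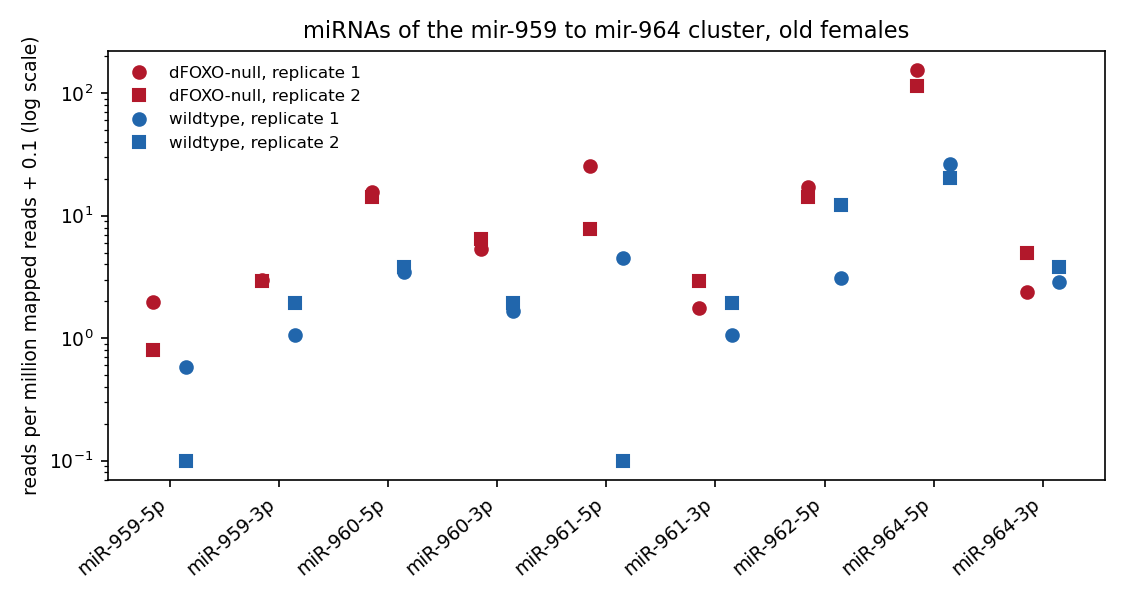
RPM plus 0.1, on a log scale, of the 9 measured arms of the mir-959 to mir-964 cluster in dFOXO-null (red, left of each pair) and wildtype (blue) old females, circles for replicate 1 and squares for replicate 2. miR-964-5p lay at 154 and 115 RPM in dFOXO-null females against 26.1 and 20.3 RPM in wildtype females, while miR-961-3p and miR-964-3p overlapped; points at 0.1 mark libraries with 0 reads.

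Both arms that fell had no reads in old dFOXO-null females. miR-9370-5p had 0 and 0 reads in dFOXO-null old females, against 39 and 21 reads (4.67 and 19.4 RPM) in wildtype old females (adjusted p = 0.0344, edgeR). A limit of 3 reads over the group corresponds to 0.481 RPM, which makes it at least 25.0-fold lower in dFOXO-null females. miR-4969-5p had 0 and 0 reads, against 35 and 4 reads (4.19 and 3.69 RPM) in wildtype females (adjusted p = 0.0344, edgeR). By the same limit it was at least 8.20-fold below the wildtype mean of 3.94 RPM. Neither was particular to old females: miR-9370-5p had 0 reads in each of the 8 dFOXO-null libraries of both sexes and ages and 15 to 135 in the 8 wildtype libraries. For miR-4969-5p the reads were 0 or 1 in dFOXO-null libraries and 3 to 63 in wildtype libraries.

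The hairpin mir-9370 lies on chromosome X (11710252 to 11710301, - strand, dm6) and mir-4969 on chromosome 3R (21798514 to 21798671, - strand, dm6), the arm that also carries foxo. Leaving out dFOXO-null replicate 1 or replicate 2 gave adjusted p of 0.169 and 0.0885 for both miR-9370-5p and miR-4969-5p in edgeR. For miR-4969-5p the adjusted p was also 0.0764 without wildtype replicate 1.

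By the rule for naming (a mean of at least 20 reads, an unadjusted p under 0.05 and no overlap) 14 arms were higher, and the 10 largest changes among them were those of miR-964-5p, miR-961-5p and miR-960-5p and of miR-282-5p, miR-998-3p, miR-79-5p, miR-314-3p, miR-993-5p, miR-304-3p and miR-306-5p. Of these 10 arms miR-964-5p alone passed the adjusted test, and for the arms outside the cluster the adjusted p ran from 0.0814 to 0.283 (edgeR). miR-314-3p had 2815 and 1030 reads in dFOXO-null females (585 and 721 RPM) and 877 and 225 reads in wildtype females (105 and 208 RPM), a log2 fold change of 2.07 ± 0.55 (SE). miR-306-5p, which shares a cluster with miR-79, miR-9b and miR-9c, had 5374 and 4985 RPM against 1578 and 1453 RPM (log2 fold change 1.77 ± 0.62 SE). miR-998-3p, from a hairpin within an intron of the cell cycle gene E2f1, had 175 and 337 RPM against 37.9 and 79.4 RPM (log2 fold change 2.13 ± 0.92 SE). In each of these arms the lower dFOXO-null library was at least as far above the higher wildtype library as the wildtype libraries were apart. miR-282-5p had the largest fitted change of these 10 arms, 2.76 ± 1.15 (SE), and the widest spread, with 92.7 and 514 RPM in dFOXO-null females and 10.9 and 80.4 RPM in wildtype females.

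On the lower side, 8 arms met the same rule. miR-988-5p had 646 and 169 reads in dFOXO-null females (134 and 118 RPM) and 4385 and 616 in wildtype females (526 and 569 RPM), a log2 fold change of -2.11 ± 0.52 (SE, adjusted p = 0.0591, edgeR). miR-5-5p, of the mir-309 cluster that clears maternal messages in the early embryo, had 256 and 182 RPM against 1179 and 405 RPM (log2 fold change -1.86 ± 0.61 SE). bantam-5p, the minor arm of the growth-promoting miRNA bantam, had 404 and 424 RPM against 739 and 2240 RPM (log2 fold change -1.85 ± 0.55 SE). The dFOXO-null libraries were close together in these arms, and most of the spread lay between the wildtype libraries of miR-5-5p and bantam-5p. let-7-5p, a regulator of developmental timing that is also expressed in adult neurons, had 810 and 1096 RPM against 3136 and 1478 RPM (log2 fold change -1.28 ± 0.56 SE). The remaining arms were miR-4984-3p with -2.28 ± 0.87, miR-2a-1-5p with -1.59 ± 0.63, miR-263a-5p with -1.40 ± 0.53 and miR-957-3p with -1.14 ± 0.52 (log2 fold change ± SE). With spike-in reads as library size, bantam-5p, miR-2a-1-5p, miR-263a-5p and miR-957-3p lay above 0.

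**Figure D2:**
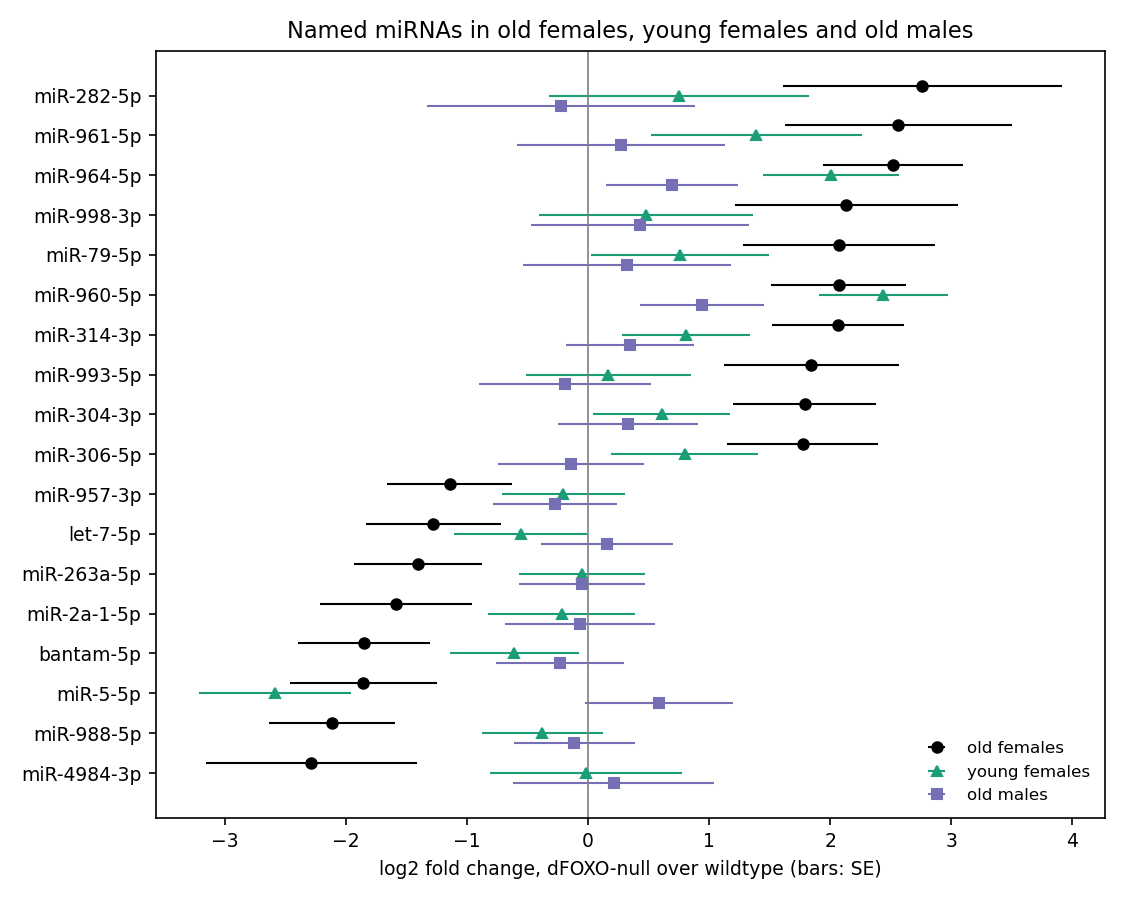
Log2 fold change of dFOXO-null over wildtype (x axis, bars are SE) for 18 named miRNA arms in old females (black circles), young females (green triangles) and old males (purple squares). miR-964-5p lay at 2.52 in old females, 2.01 in young females and 0.70 in old males, and miR-988-5p at -2.11, -0.38 and -0.11; the arms at 0 reads in old dFOXO-null females are left out.

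By groups of known function, the miRNAs of the miR-9 family with miR-79 and miR-306 had 7 of 8 arms above 0 and a median log2 fold change of 0.92, with 2 arms higher and 0 lower at an unadjusted p under 0.05 (edgeR). For this and the lists that follow, the shares of all 208 arms at that limit were 8.17% higher and 6.25% lower. The K-box family has main arms whose seeds match a motif in 3′ ends of Notch target messages, and its list also held minor arms. The list had 2 arms higher and 2 lower among 14, with a median of -0.28 (0.07 with TMM and 1.06 with spike-in scaling). Its higher arms were miR-13a-3p, with 432 and 375 RPM in dFOXO-null females and 123 and 122 RPM in wildtype females, and miR-13b-3p, with 644 and 481 RPM against 208 and 159 RPM. The log2 fold changes were 1.72 ± 0.49 for miR-13a-3p and 1.62 ± 0.51 for miR-13b-3p (SE, adjusted p = 0.103 and 0.126, edgeR). The lower arms, miR-2a-1-5p and miR-2c-5p, are minor arms of their hairpins and lack that seed. Among arms with the seed, 2 were thus higher and 0 lower at an unadjusted p under 0.05 (edgeR).

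The 6 arms of the let-7 complex (let-7, miR-100 and miR-125, which are made from a single transcript) all lay below 0, with a median of -1.18 (1 above 0 with TMM scaling and 3 with spike-in scaling). Their summed level was 1534 and 3269 RPM in dFOXO-null females and 4417 and 7826 RPM in wildtype females, and 1 arm, let-7-5p, had an unadjusted p under 0.05. The muscle miRNAs miR-1 and miR-133 had 0 of 3 arms at that limit and summed to 42209 and 13021 RPM against 92907 and 35420 RPM. For miRNAs of the nervous system and eye it was 0 of 16, with a median of -0.33 that lay above 0 with TMM, spike-in and DESeq2 scaling. For those of growth and metabolism it was 1 of 24, lower, and for the mir-277, mir-34 and mir-317 cluster, which includes the age-linked miR-34, it was 0 of 6.

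The testis list had 9 arms that passed the filter, of which 2 were higher and 0 lower at an unadjusted p under 0.05, and the whole list summed to 68.8 and 69.3 RPM in dFOXO-null females and 28.8 and 24.0 RPM in wildtype females. Both of the higher arms came from miR-983: the 5p arm had 223 and 53 reads in dFOXO-null females against 124 and 10 in wildtype females, and the 3p arm 34 and 20 reads against 1 and 3. Of the 9 arms, 6 had a log2 fold change above 0 and 3 below. Some other members were at or near 0 in the 4 libraries: miR-974-5p had 0 reads in each, and miR-976-3p had 2 and 0 reads in dFOXO-null females and 0 and 0 in wildtype females. The sums of the list also held reads of members not named here. The lists of innate immunity (2 higher of 11, miR-964-5p among them), the mir-310 cluster (1 higher of 9, miR-2498-5p with 13 and 15 reads against 1 and 1), the Hox complex (1 higher of 5), sensory organs (1 lower of 6) and the mir-309 cluster (1 lower of 5) held the rest of the arms that passed this limit within lists.

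The balance between the arms of a hairpin does not depend on library size, and was computed for 47 hairpins with a mean of at least 20 reads on each arm. The ratio of 5p to 3p reads was higher without overlap in dFOXO-null old females for 5 hairpins (10.6%) and lower for 12 (25.5%). Both directions together, the rate without any difference between groups is the 0.333 given above. For miR-998 the 5p arm had 59 and 69 reads in dFOXO-null females and 336 and 181 in wildtype females, while the 3p arm had 842 and 481 reads against 316 and 86. The log2 ratio of 5p to 3p was thus -3.82 and -2.79 in dFOXO-null females and 0.09 and 1.07 in wildtype females, the largest difference of the 47. As RPM the 5p arm overlapped between the genotypes, with 12.3 and 48.3 in dFOXO-null females and 40.3 and 167 in wildtype females, and the 3p arm did not. In young females the ratio for miR-998 was -0.21 and -2.36 in the mutant and 0.27 and -1.82 in wildtype, so that the genotypes overlapped there.

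miR-314 had log2 ratios of -5.59 and -6.76 in dFOXO-null females and -2.84 and -3.96 in wildtype females. Its 3p arm was higher, as given above, and its 5p arm had 58 and 9 reads against 122 and 14. For miR-263a they were 8.31 and 6.51 against 10.1 and 8.69, and for bantam -7.61 and -7.85 against -6.34 and -6.29. For miR-263a the 5p arm, the more abundant, was lower without overlap and the 3p arm overlapped, with 105 and 50 reads in dFOXO-null females and 65 and 47 in wildtype females. For bantam the 5p arm, the rarer, was lower without overlap and the 3p arm overlapped, with 79101 and 98019 RPM against 59744 and 174732 RPM. miR-993, a miRNA encoded in the Hox complex, had the largest difference in the other direction, with -1.67 and -2.10 in dFOXO-null females and -4.07 and -4.29 in wildtype females, from 248 and 100 reads of the 5p arm against 109 and 23. Leaving out any 1 library raised the count of hairpins without overlap to between 26 and 35, since fewer libraries have to be separated.

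Reads of 21 nt can also be set against all 19 to 25 nt reads of the same miRNA or transposon, which again does not depend on library size. Among 81 miRNA arms with at least 200 reads in each of the 4 libraries, the share of 21 nt was higher without overlap for 6 (7.41%) and lower for 18 (22.2%) in dFOXO-null old females. The median share was 18.5% and 18.5% in dFOXO-null females and 19.2% and 19.5% in wildtype females. The arm miR-986-5p stood out, with 21.4% and 32.2% in dFOXO-null females (95% Wilson intervals 20.6 to 22.1 and 29.6 to 35.0) and 47.5% and 55.7% in wildtype females (46.8 to 48.1 and 53.3 to 58.1). For miR-276a-5p and miR-276b-5p, whose counts were equal and so share reads, the shares were 37.2% and 41.6% against 52.1% and 60.1%. miR-9c-5p had 17.3% and 17.2% against 51.8% and 25.9%. Higher shares in dFOXO-null females were found for miR-994-5p, an ovary miRNA, with 26.6% and 25.8% against 19.6% and 16.9%, and for miR-9a-5p, with 38.9% and 45.0% against 35.1% and 22.2%. Intervals and limits given here cover counting error only.

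The same measure divided the transposons more widely. For 99 transposons that reached 100 reads in every one of the 4 libraries, the share of 21 nt was higher without overlap in dFOXO-null old females for 10 (10.1%) and lower for 33 (33.3%), and its median was 6.93% and 7.99% in dFOXO-null females and 7.98% and 9.06% in wildtype females. For 297, a gypsy-group retrovirus-like element, 20.3% and 24.9% of reads were 21 nt in dFOXO-null females (95% Wilson intervals 19.4 to 21.2 and 23.5 to 26.4), against 49.8% and 55.3% in wildtype females (49.3 to 50.4 and 54.1 to 56.6). Stalker3, an element related to mdg1, had 17.4% and 18.2% against 43.8% and 31.8%, and the DNA transposon pogo 7.39% and 7.10% against 17.8% and 18.3%. In these elements reads of 21 nt were a smaller part of the reads in both dFOXO-null libraries.

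Other elements went the opposite way. For gypsy5 the share of 21 nt was 18.3% and 19.1% in dFOXO-null females (15.2 to 21.8 and 14.9 to 24.2) and 3.43% and 4.02% in wildtype females (3.02 to 3.88 and 3.20 to 5.05). gypsy6 had 15.3% and 15.1% against 4.59% and 5.11%, and blood 16.2% and 15.8% against 5.92% and 8.19%. The replicates of a genotype agreed within a few points in these elements, while the genotypes did not overlap. The same order held in young females, where the share was 12.02% and 12.16% in dFOXO-null flies against 51.9% and 41.3% in wildtype flies for 297, and 16.1% and 18.6% against 5.66% and 4.08% for gypsy5. Without dFOXO-null replicate 1, without dFOXO-null replicate 2, without wildtype replicate 1 and without wildtype replicate 2, the miRNA arms with no overlap numbered 46, 50, 60 and 60, and the transposons 66, 75, 78 and 70.

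**Figure D3:**
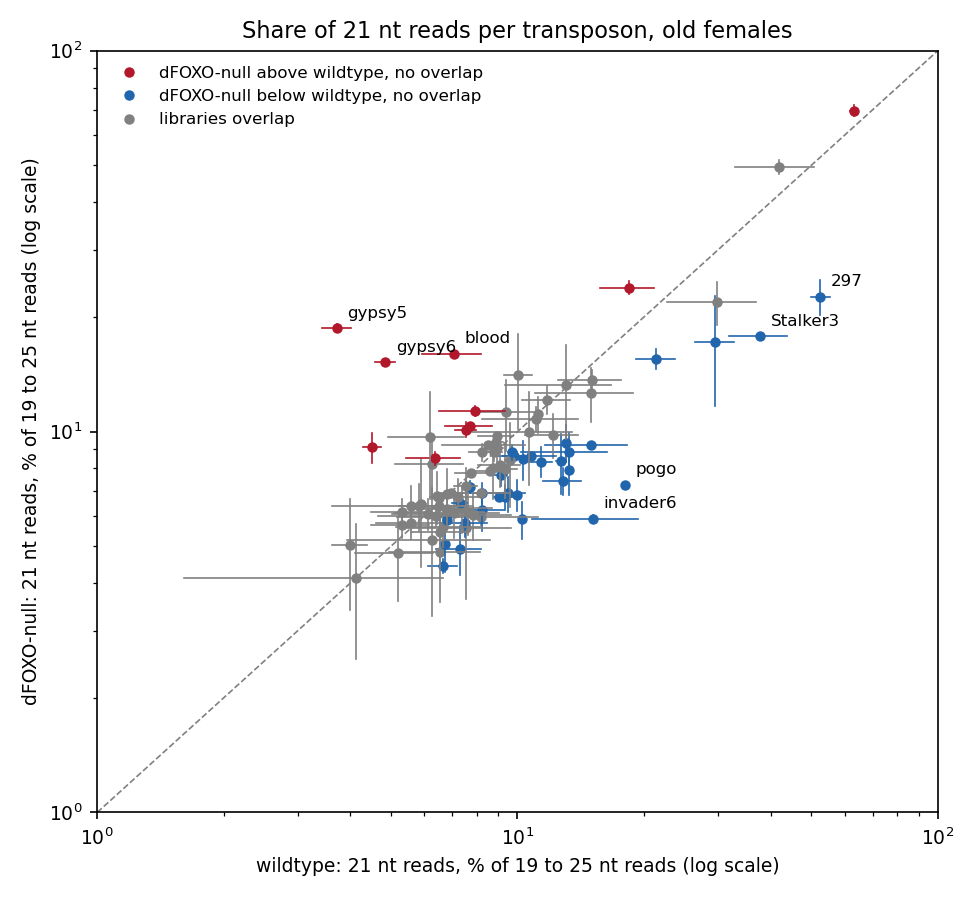
Share of 21 nt reads among 19 to 25 nt reads for each of 99 transposons in old females, the mean of the dFOXO-null libraries (y axis, %, log scale) against the mean of the wildtype libraries (x axis, %, log scale), with lines that span the 2 libraries of each genotype. gypsy5, gypsy6 and blood lay above the dashed line of equality and 297, Stalker3, pogo and invader6 below it; colours mark elements whose libraries did not overlap.

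Among 105 transposons counted from reads of 21 nt, 0 passed an adjusted p of 0.05 in edgeR (0%), while DESeq2 called 1, copia. At an unadjusted p under 0.05 in edgeR, 0 were higher (0%) and 9 lower (8.57%) in dFOXO-null old females. Both dFOXO-null libraries were below both wildtype libraries for 51 transposons (48.6%) and above them for 3 (2.86%), and the means were at least 2-fold apart for 20 of the lower (19.0%) and 1 of the higher elements (0.952%). The median log2 fold change of all 105 was -0.59, and it was 0.54 when spike-in reads set the library size, so a general shift of transposon reads cannot be told from the choice of scale. The spike-in scale itself rested on 10 to 50 reads of 21 nt in each old female library. The number of elements with means 2-fold apart and no overlap was 21, and it was 55 without dFOXO-null replicate 2 and 33 without wildtype replicate 1.

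The element 297 had 1639 and 843 reads of 21 nt in dFOXO-null females (2882 and 4099 RPM) and 15395 and 3452 in wildtype females (14782 and 17037 RPM), a log2 fold change of -2.19 ± 0.79 (SE, adjusted p = 0.321, edgeR). copia, a long terminal repeat (LTR) retrotransposon, had 129 and 95 reads (227 and 462 RPM) against 837 and 335 reads (804 and 1653 RPM), a log2 fold change of -1.84 ± 0.52 (SE, adjusted p = 0.245, edgeR). These elements lay several-fold apart between genotypes without an adjusted call in edgeR. INE-1, a short element scattered through the genome, had 18 and 5 reads against 113 and 19. Stalker3 had 38 and 26 reads against 414 and 48, looper1 11 and 12 against 129 and 28, and invader6 237 and 104 against 1256 and 336. Their log2 fold changes were -1.83 for INE-1, -1.75 for Stalker3, -1.83 for looper1 and -1.63 for invader6.

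The 10 DNA transposon sequences, from 9 elements since FB was listed as 2 sequences, all lay below 0, with a median of -1.20 beside -0.59 over all elements (5 of 10 lay above 0 with spike-in scaling). For 4 of them, INE-1, 1360, looper1 and pogo, the unadjusted p was under 0.05 in edgeR, and 9 of 10 were lower without overlap. Over all 105 elements these shares were 8.57% and 48.6%. Their summed level was 1695 and 2645 RPM in dFOXO-null females and 4436 and 4763 RPM in wildtype females. All 5 invader elements were lower without overlap, beside 48.6% of all elements, with a median of -0.97 (3 of 5 above 0 with spike-in scaling). LINE elements had 13 of 20 lower without overlap, again beside 48.6%, and 0 at an unadjusted p under 0.05, with a median of -0.58, close to that of all elements (18 of 20 above 0 with spike-in scaling). The gypsy-group errantiviruses had a median of -0.65, the BEL and copia elements -0.79, the telomeric elements -0.40, the numbered gypsy elements -0.37 and the mdg1 group -0.23, and each of these medians lay above 0 with spike-in scaling. The telomeric sequences were listed as TARTC, TARTYAK and TARTVIR, and whether all are D. melanogaster sequences was not checked. In the mdg1 group blood was the element with both dFOXO-null libraries above both wildtype libraries.

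Among 122 transposons counted from reads of 19 to 25 nt, 0 passed an adjusted p of 0.05 in edgeR (0%), while DESeq2 called 2, gypsy5 and copia. edgeR also called gypsy5 with TMM normalization (adjusted p = 0.0295) and with the replicate number as a block (adjusted p = 0.0270). At an unadjusted p under 0.05 in edgeR, 1 was higher (0.820%) and 8 lower (6.56%), and without overlap 2 were higher (1.64%) and 60 lower (49.2%). The median log2 fold change was -0.74. gypsy5 had 530 and 272 reads (110 and 190 RPM) in dFOXO-null females and 6978 and 1740 reads (836 and 1607 RPM) in wildtype females, a log2 fold change of -3.02 ± 0.73 (SE, adjusted p = 0.128, edgeR). Its reads of 21 nt were a larger part of fewer reads. R2-element, which inserts into ribosomal DNA, had 216 and 96 reads against 978 and 249, and springer 2230 and 1315 against 8759 and 2928. A sequence of HeT-A, a telomeric element, listed in the table as YAKHETA, was the higher one, with 167 and 100 reads against 74 and 26 (log2 fold change 1.71 ± 0.76 SE, adjusted p = 0.431, edgeR). The species of this HeT-A sequence was not checked.

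Reads on dm6 transcripts came from 1566 transcripts that passed the filter, of which 8 passed an adjusted p of 0.05 in edgeR (0.511%), 5 higher and 3 lower. At an unadjusted p under 0.05, 44 transcripts were higher (2.81%) and 174 lower (11.1%) in dFOXO-null old females. Without overlap 127 were higher (8.11%) and 473 lower (30.2%), and with means also 2-fold apart 91 (5.81%) and 339 (21.6%). The median log2 fold change was -0.50, and 1.03 when spike-in reads set the library size. Transcripts can share reads: 504 of the 1566 lay in 87 groups with nearly equal counts in all 16 libraries, so that the 1566 transcripts stand for 1149 groups, and the 174 lower transcripts for 116. The number of adjusted calls was 0 without dFOXO-null replicate 1, 4 without dFOXO-null replicate 2, 13 without wildtype replicate 1 and 1 without wildtype replicate 2. The transcripts with means 2-fold apart and no overlap numbered 430, and 701 without dFOXO-null replicate 2 and 775 without wildtype replicate 2.

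Of the transcripts that rose, lncRNA:CR45222 (chromosome 3R, 17638778 to 17639627, + strand, dm6) had 1983 and 312 reads in dFOXO-null old females and 139 and 14 in wildtype old females, a log2 fold change of 4.20 ± 0.70 (SE, adjusted p = 0.0130, edgeR). Gas8 (X, 3491011 to 3493173, - strand), whose protein is part of a dynein regulator in motile cilia, had 1987 and 314 reads against 186 and 29, and lncRNA:CR44657 (X, 14114141 to 14116889, + strand) 1989 and 316 against 207 and 33. Ogdh (3L, 16954822 to 16968080, + strand), a subunit of the oxoglutarate dehydrogenase of the citric acid cycle, had 2005 and 319 reads against 293 and 36. The log2 fold changes were 3.64 ± 0.64 for Gas8, 3.48 ± 0.64 for lncRNA:CR44657 and 3.09 ± 0.66 for Ogdh (SE, adjusted p = 0.0130, 0.0160 and 0.0453, edgeR). The 4 transcripts lie on 3 chromosome arms but their counts differed by at most 1.10% and 2.19% in the dFOXO-null libraries, against 52.6% and 61.1% in the wildtype libraries. Whether they share reads that align to each of these places was not tested, and they may be a single signal rather than 4. Without dFOXO-null replicate 1 the adjusted p of these 4 was 0.222 to 0.377, and without wildtype replicate 2 it was 0.0653 to 0.0742, while that of Ogdh was also 0.0626 without dFOXO-null replicate 2 (edgeR).

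snoRNA:Psi18S-1295 (3R, 20822610 to 20822749, + strand), a guide for pseudouridine in 18S ribosomal RNA, had 238 and 54 reads in dFOXO-null females and 10 and 6 in wildtype females, a log2 fold change of 4.15 ± 0.71 (SE, adjusted p = 0.0130, edgeR). The adjusted p was 0.222 without dFOXO-null replicate 1, 0.0734 without wildtype replicate 1 and 0.0653 without wildtype replicate 2 (edgeR). Its reads were few but the lower dFOXO-null library, at 47.6 RPM, was far above the higher wildtype library, at 4.14 RPM.

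Of the transcripts that fell, snoRNA:Or-CD12 (3L, 3221350 to 3221427, - strand), a small nucleolar RNA of the C/D type, had 119 and 51 reads in dFOXO-null old females (33.5 and 45.0 RPM) and 2907 and 387 in wildtype old females (727 and 267 RPM). The log2 fold change was -3.67 ± 0.64 (SE, adjusted p = 0.0130, edgeR), and the adjusted p was 0.293 without dFOXO-null replicate 1 and 0.147 without dFOXO-null replicate 2. Over all ages and both sexes, snoRNA:Or-CD12 lay at 33.5 to 101 RPM in the 8 dFOXO-null libraries and at 188 to 727 RPM in the 8 wildtype libraries.

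CG3906 (2R, 23511286 to 23512225, - strand), a protein coding gene, had 0 and 0 reads in dFOXO-null old females, against 68 and 65 reads (17.0 and 44.9 RPM) in wildtype old females (adjusted p = 0.0265, edgeR). With a limit of 3 reads over the group, or 0.640 RPM, it was at least 48.4-fold below the wildtype mean of 30.9 RPM, though not below each wildtype library by that much. Sk2 (3L, 3047087 to 3050159, + strand), a sphingosine kinase, had 3 and 0 reads against 134 and 60, a log2 fold change of -5.90 ± 1.14 (SE, adjusted p = 0.0242, edgeR). Without dFOXO-null replicate 1 or replicate 2 the adjusted p was 0.377 and 0.183 for CG3906 and 0.269 and 0.255 for Sk2, and without wildtype replicate 2 it was 0.0653 for both (edgeR).

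Reads on CG3906 and Sk2 were found mainly in old wildtype flies of both sexes. CG3906 had 0 reads in each of the 8 dFOXO-null libraries, against 540 and 58 in old wildtype males, 0 and 2 in young wildtype females and 1 and 1 in young wildtype males. Sk2 had between 0 and 8 reads in each dFOXO-null library and each young library, against 241 and 46 in old wildtype males. In young females Sk2 had 7 and 8 reads in dFOXO-null flies and 6 and 5 in wildtype flies, so the genotypes differed in old females and overlapped in young females. The difference between the effects at both ages was -6.23 on the log2 scale for Sk2 (unadjusted p = 0.000715, adjusted p = 1.00, edgeR) and did not pass the adjusted test.

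**Figure D4:**
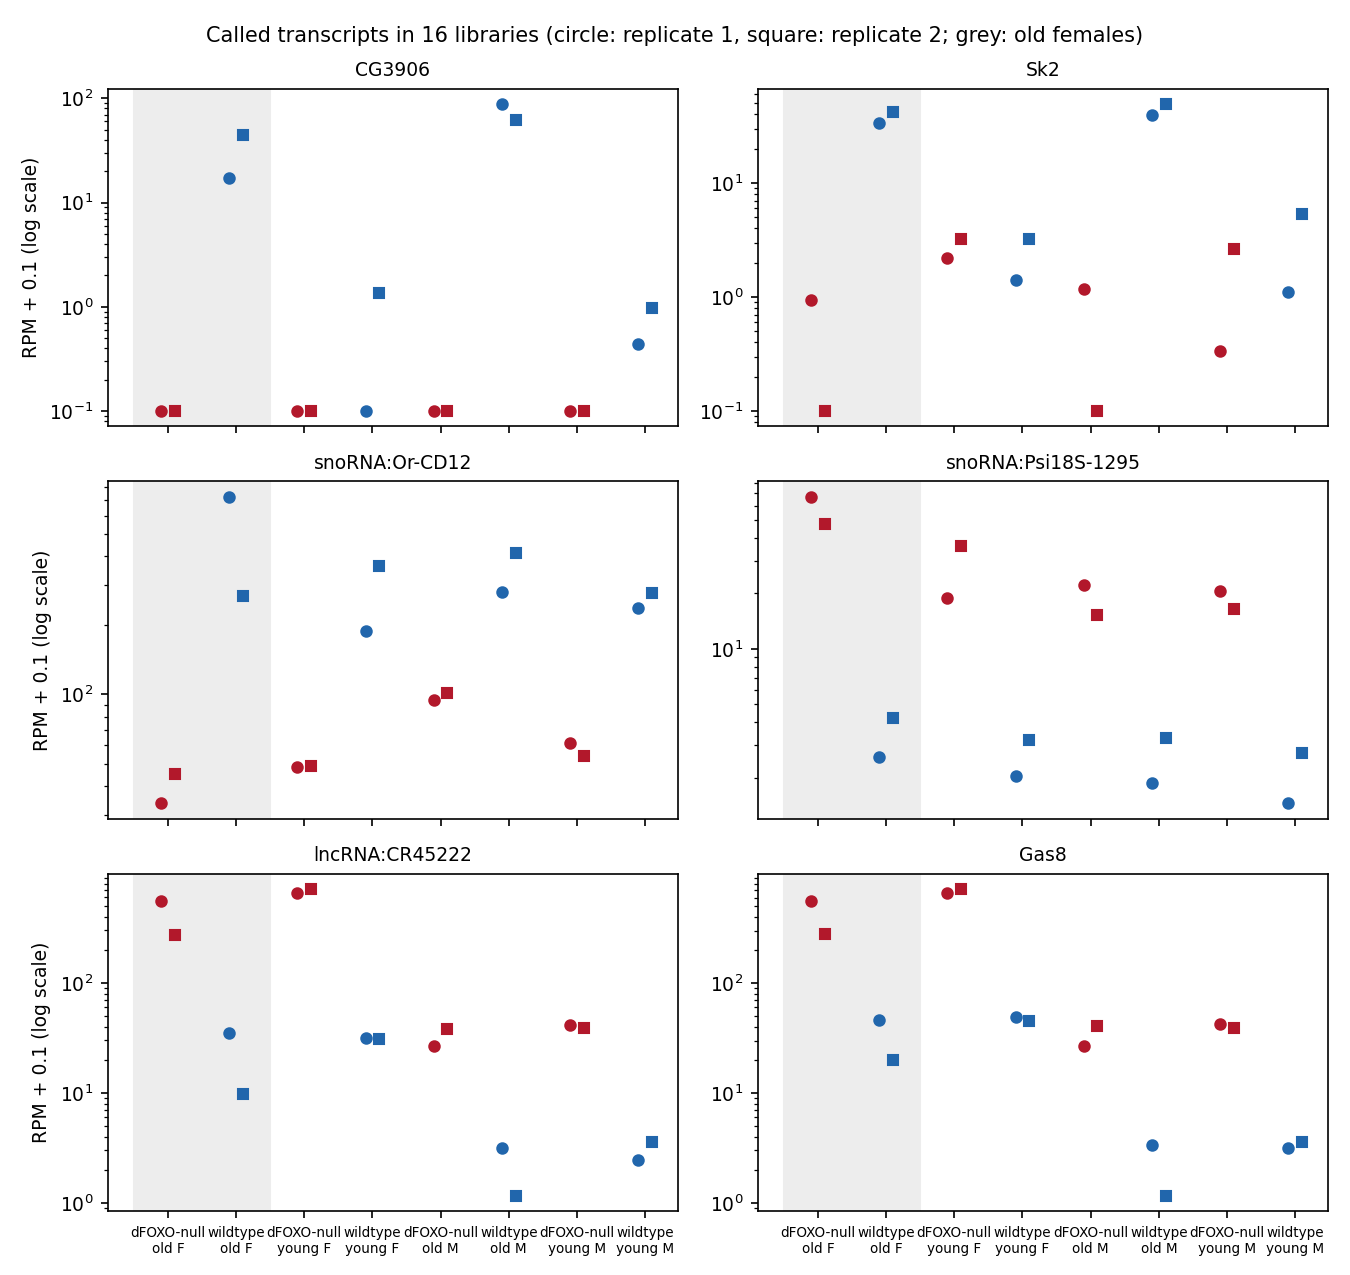
RPM plus 0.1, on a log scale, of 6 transcripts in all 16 libraries (dFOXO-null in red, wildtype in blue; F female, M male; circles replicate 1, squares replicate 2; the grey band marks old females). snoRNA:Or-CD12 was lower and snoRNA:Psi18S-1295, lncRNA:CR45222 and Gas8 higher in the dFOXO-null libraries of each sex and age, while CG3906 and Sk2 had at most 5.24 RPM in dFOXO-null and young libraries, against more than 10 RPM in old wildtype libraries.

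Further transcripts with a mean of 20 reads, an unadjusted p under 0.05 and no overlap numbered 36 on the higher side and 128 on the lower side, called ones included. Among the 10 largest changes on the higher side, Snap24, a SNARE protein of vesicle fusion, had 52 and 48 reads in dFOXO-null females and 6 and 4 in wildtype females (log2 fold change 3.77 ± 1.17 SE, adjusted p = 0.142, edgeR). Pde9, a phosphodiesterase, had 42 and 39 reads against 2 and 8. Acox3, a peroxisomal acyl-CoA oxidase, and syd, a motor adaptor, had 295 and 67 reads and 290 and 66 reads in dFOXO-null females, against 53 and 2 and 46 and 1 in wildtype females. The near-equal counts of Acox3 on 2L and syd on 3L have the same form as those of Gas8 and Ogdh.

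On the lower side, Mal-A1, a maltase of the gut, had 5 and 4 reads in dFOXO-null females and 77 and 73 in wildtype females (log2 fold change -3.92 ± 1.29 SE, adjusted p = 0.184, edgeR). Nepl11, a neprilysin-like peptidase, had 6 and 0 reads against 58 and 50, and Srg2 1 and 2 against 24 and 60. BomBc2, a bomanin peptide induced by infection, had 9 and 2 reads against 100 and 17. CG12123 had 17 and 2 reads against 154 and 61, and lncRNA:CR30055 4 and 0 against 71 and 18. tRNA:Cys-GCA-4-1 had 22 and 6 reads against 305 and 89 (log2 fold change -3.56 ± 0.78 SE, adjusted p = 0.0550, edgeR). The counts of protein coding genes in this group were small in the mutant, mostly under 20 reads.

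Of the list of insulin and dFOXO target genes, 1 of 19 had reads enough to be tested, tobi, an α-glucosidase gene known as a target of brain insulin. It had 3 and 0 reads in dFOXO-null females and 16 and 18 in wildtype females, with a log2 fold change of -3.68 ± 1.34 (SE, adjusted p = 0.259, edgeR). Of the small RNA pathway, mitochondrial and immunity lists 0 genes could be tested, and of the yolk and eggshell list 1. The list of histones had 113 transcripts in 9 groups of shared reads, with 0 higher and 9 lower at an unadjusted p under 0.05 (edgeR), where 11.1% of all transcripts were lower. Those 9 are all copies of the linker histone His1 in 1 group of shared reads. All 113 lay below 0 with a median of -1.02 beside -0.50 over all transcripts (67 above 0 with spike-in scaling and 17 with DESeq2). The histone transcripts summed to 1549 and 2695 RPM in dFOXO-null females and 4408 and 3281 RPM in wildtype females.

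Heat shock genes had 0 of 9 transcripts at that limit and a median of -0.70 (9 above 0 with spike-in scaling), and genes of the gut 0 higher and 1 lower of 9. Hairpin siRNA loci, which give Dicer-2 products from long inverted repeats, had 0 of 4, and hpRNA:CR46342 alone had 20131 and 41704 RPM in dFOXO-null females and 37320 and 54039 RPM in wildtype females. Spliceosomal and related RNAs had 0 higher and 4 lower of 25, with a median of -0.43 that lay above 0 with spike-in and DESeq2 scaling. The 4 lower spliceosomal RNAs were copies of U2 in 1 group of shared reads. Muscle genes had 0 of 3.

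By class, a grouping made after the values were seen and so given without a test, reads on snoRNAs and tRNAs differed in direction. snoRNAs guide the modification of other RNAs in the nucleolus, and those whose names begin with Psi guide pseudouridine while those with Me guide methylation. Of 54 pseudouridine guides, 13 were higher and 0 lower at an unadjusted p under 0.05 in edgeR, and 35 were higher and 1 lower without overlap. Over all 1566 transcripts 2.81% were higher at that p and 8.11% without overlap. Their median was 1.09 beside -0.50 over all transcripts, and they summed to 1461 and 1269 RPM in dFOXO-null old females and 635 and 398 RPM in wildtype old females. Of 41 methylation guides, 1 was higher and 0 lower, with a median of 0.40 and sums of 898 and 959 RPM against 948 and 571 RPM. The medians of both types were above 0 with TMM, spike-in and DESeq2 scaling.

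Among the pseudouridine guides, snoRNA:Psi28S-1175b had 177 and 90 reads in dFOXO-null females and 31 and 6 in wildtype females (log2 fold change 3.39 ± 0.97 SE, adjusted p = 0.0960, edgeR). snoRNA:Psi28S-3342, the more abundant, had 1341 and 361 reads against 535 and 74 (log2 fold change 1.91 ± 0.83 SE, adjusted p = 0.344, edgeR). snoRNA:Psi28S-2149 had 523 and 63 reads against 86 and 31, and snoRNA:Psi18S-841b 53 and 29 against 15 and 5. In young females snoRNA:Psi28S-1175b had a log2 fold change of 0.62 and snoRNA:Psi28S-3342 of 0.68. snoRNA:Psi18S-1295, described above, had a log2 fold change of 3.47 in young females.

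Transfer RNAs, which give fragments in this size range, had 281 transcripts in 136 groups of shared reads. At an unadjusted p under 0.05 in edgeR, 0 were higher and 68 lower, and 99 were lower and 1 higher without overlap. Over all transcripts 11.1% were lower at that p and 30.2% without overlap, so the count without overlap was near that of all transcripts. The class summed to 38180 and 31097 RPM in dFOXO-null females and 100945 and 71566 RPM in wildtype females, with a median log2 fold change of -0.81 (1.06 with spike-in scaling, where 231 lay above 0). The isotypes with the lowest medians among those with 14 or more transcripts were tRNA:Gly (-2.31, 14 lower of 20), tRNA:Pro (-1.97, 14 of 14) and tRNA:Val (-1.85, 3 of 15). The 14 lower tRNA:Gly transcripts, all tRNA:Gly-GCC, form 1 group of shared reads, and the 14 tRNA:Pro transcripts form 5. The glycine and proline medians stayed below 0 with each scaling, while that of tRNA:Val was 0.28 with spike-in scaling. tRNA:Gly-GCC-1-5 had 1152 and 303 reads in dFOXO-null females (324 and 267 RPM) and 5956 and 2119 in wildtype females (1489 and 1463 RPM), a log2 fold change of -2.32 ± 0.61 (SE, adjusted p = 0.0770, edgeR). For tRNA:Pro-TGG-1-2 the reads were 285 and 44 against 1842 and 262. For tRNA:Phe the median was 0.50, and 0 of 8 transcripts passed the limit.

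**Figure D5:**
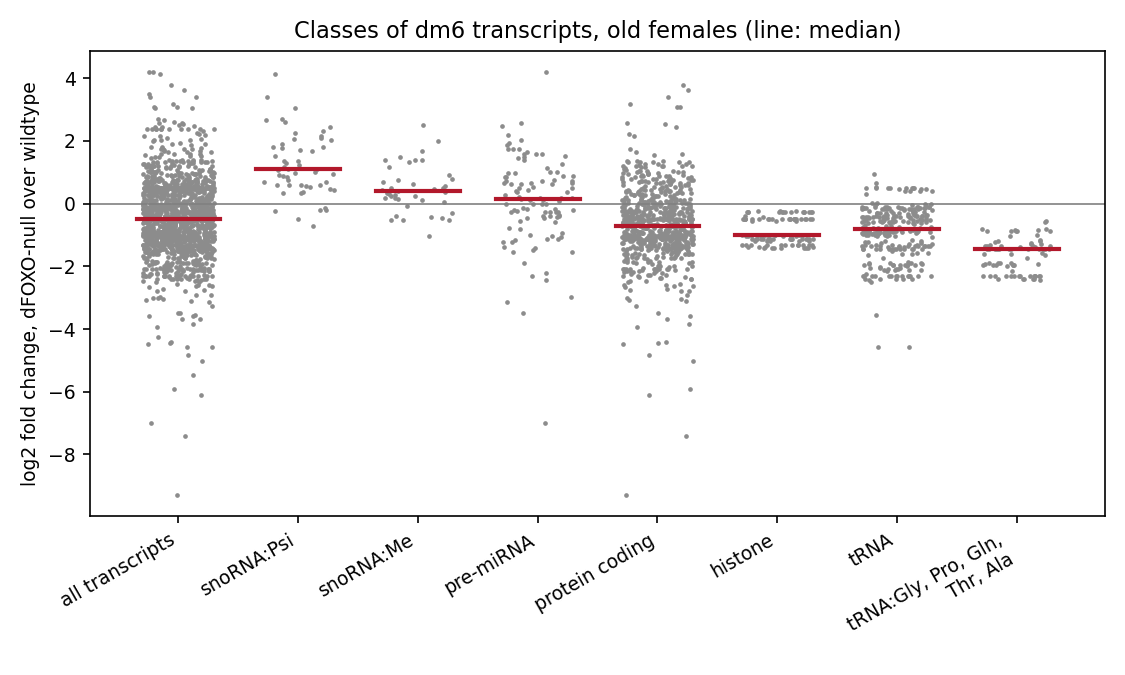
Log2 fold change of dFOXO-null over wildtype in old females (y axis) for each tested dm6 transcript, by class (x axis), with a red line at the median of the class. The median of all 1566 transcripts was -0.50, that of snoRNAs named Psi 1.09, of snoRNAs named Me 0.40, of histones -1.02 and of tRNAs -0.81; transcripts of a class can share reads.

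Other classes made up most of the reads on dm6 and varied between replicates. Ribosomal RNA took 24.7% and 31.9% of reads in dFOXO-null females and 11.9% and 28.3% in wildtype females, and miRNA hairpins 39.6% and 32.5% against 48.6% and 13.0%. Pseudogenes took 24.9% and 22.4% against 16.6% and 39.5%, and were the largest class in wildtype replicate 2. Protein coding transcripts took 2.86% and 4.20% against 6.96% and 4.65%, and of 746 tested 11 were higher and 74 lower at an unadjusted p under 0.05 in edgeR, beside 2.81% and 11.1% of all transcripts. Reads on ribosomal RNA were thus higher in both dFOXO-null libraries than in wildtype replicate 1, and those on hairpins and pseudogenes lay between the wildtype libraries. The part of these shares in the values of other transcripts was not tested.

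Whether the difference between genotypes in old females differed from that in young females or in old males was tested as an interaction in the same fits. For miRNAs 1 arm, miR-1002-3p, passed the adjusted test against young females (0.481%) and 0 against old males (0%), with 14 and 10 arms at an unadjusted p under 0.05 in edgeR and 5 and 0 adjusted calls in DESeq2. For transposons of 21 nt both counts were 0 (0%), with 0 and 5 elements at an unadjusted p under 0.05 in edgeR and 0 adjusted calls in DESeq2. For dm6 transcripts both were 0 (0%) as well, with 25 and 61 transcripts at an unadjusted p under 0.05 in edgeR and 1 and 0 adjusted calls in DESeq2. Without dFOXO-null replicate 2 or wildtype replicate 1 the count against young females for miRNAs was 0, and without wildtype replicate 2 it was 3.

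Effects in the other groups, from their own libraries, are given side by side. For miR-964-5p the log2 fold change was 2.52 in old females, 2.01 ± 0.56 in young females and 0.70 ± 0.54 in old males (SE). miR-964-5p had 154 and 115 RPM in old dFOXO-null females, 195 and 229 in young dFOXO-null females and 211 and 343 in old dFOXO-null males, and 163 and 178 RPM in old wildtype males. Wildtype females were the group with the low level, at 26.1 and 20.3 RPM when old and 40.8 and 64.9 RPM when young. miR-960-5p had 2.07, 2.44 and 0.94 in the same order of groups, and miR-5-5p -1.86, -2.59 and 0.59.

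A different pattern was that of miR-988-5p, with log2 fold changes of -2.11 in old females, -0.38 in young females and -0.11 in old males. Its level was 134 and 118 RPM in old dFOXO-null females and 247 and 145 RPM in young dFOXO-null females, against 526 and 569 RPM in old and 261 and 248 RPM in young wildtype females. The difference between the ages had an unadjusted p of 0.0279 and that between the sexes 0.0139 in edgeR, and neither passed the adjusted test. miR-13a-3p had 1.72 in old females, -0.19 in young females and -0.19 in old males, with an unadjusted p of 0.0141 for the difference between ages (edgeR). For the transposon 297 the values from 21 nt reads were -2.19, -2.33 and -3.33, and for gypsy5 from 19 to 25 nt reads -3.02, -2.69 and -1.32. Gas8 had 3.64, 3.88 and 3.67, so that transcripts with a like difference in each group stood beside those whose difference was largest in old females.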

How the data were processed

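Total small RNA of whole flies was cut from gels at 19 to 35 nt and sequenced. As the paper's methods and the submitters' processing notes state, the authors trimmed reads with Trim Galore, mapped them with Bowtie, all valid alignments with up to 1 mismatch being reported, to the dm6 build or to miRNA, transposon and spike-in sequences, and obtained the counts with featureCounts. The authors deposited whole-number counts for 3 tables (reads of 19 to 25 nt, of 21 nt, and on dm6 transcripts) and, for each, percents of mapped reads without spike-ins; the counts were used, and percents recomputed from them departed from the deposited ones by no more than 0.00334 in relative terms. How reads with several places were counted is not given in the sources used here, so related features can share reads. Gene names and positions came from the Ensembl BDGP6 annotation of the same assembly.

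Counts were fitted with edgeR 4.0.16 in R 4.3.3 (quasi-likelihood test), 1 fit per table over all 16 libraries with 8 conditions, library sizes that left out spike-ins and a mean of at least 5 counts, with Benjamini-Hochberg adjustment within a class. DESeq2 1.42.0, TMM, spike-in scaling, other filters, a replicate block, other sets of libraries and leaving out each library were alternatives. The SE of a log2 fold change is its size divided by the square root of the F statistic. Log ratios of arms used 0.5 added to each count. Shares of 21 nt reads carry Wilson intervals at 95%. An exact permutation test of 2 against 2 libraries cannot go below p = 0.333 and was not used. In simulated data, p-values were adjusted over all features of a table, not within a class. Each fit was tested on such data, drawn with the dispersion trend of the real libraries and not with each feature's own dispersion. Of genes given a 4-fold change it called 2 of 20 in 19 to 25 nt reads (330 features), 2 of 20 in 21 nt reads (258) and 21 of 100 in dm6 reads (1566), and of genes given a 16-fold change 19, 18 and 73. With the same 2 libraries a group but a dispersion of 0.1, the fits called 14 of 20, 20 of 20 and 72 of 100 of the 4-fold changes. Total counts per old female library ran from 1082684 to 8344038 (19 to 25 nt), 202623 to 1041456 (21 nt) and 1133759 to 4000996 (dm6), and no molecular identifiers were used.

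Named features had a mean of at least 20 reads in the 4 libraries, an unadjusted p under 0.05 and no overlap, up to 10 in each direction (6 for transposons), with all adjusted calls and members of lists. The members, lists and rules were chosen with earlier results of these data known, and the classes of dm6 transcripts, shares of 21 nt and arm ratios after seeing values. Tables were handled in Python 3.11.15 with pandas 2.3.3, numpy 2.4.6 and scipy 1.17.1, and drawn with matplotlib 3.10.9.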

Additional observations from a re-analysis of the deposited data

Results flagged for a closer look

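The arm miR-1002-3p was the 1 arm whose difference between genotypes passed the adjusted test for a change between ages. The effect in old females minus that in young females was 8.51 ± 1.69 on the log2 scale (SE, adjusted p = 0.0492, edgeR). It had 11 and 34 reads in old dFOXO-null females and 29 and 6 in old wildtype females, where the libraries overlapped (log2 fold change 1.53, adjusted p = 0.479, edgeR). In young females the fitted difference was -6.98 (adjusted p = 0.0101, edgeR). The call for the change between ages was absent with spike-in scaling, without a filter, with a mean of 50 counts and with the 8 female libraries. The call rests on low counts, and it was lost without dFOXO-null replicate 2 and without wildtype replicate 1 of the old females.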

How the results depend on the processing

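The 3 adjusted calls among miRNAs became 9 with TMM normalization, 0 with spike-in reads as library size, 18 with DESeq2, 0 with a mean filter of 50 counts, 0 with the 8 female libraries and 0 with only the 4 libraries compared. Leaving out a library gave 0 to 7. The 8 calls among dm6 transcripts became 0, 32 and 32 with spike-in size, DESeq2 and a mean of 50, and 0 with the 8 female libraries (0 to 13 leaving out a library). For the miRNA age interaction (1 call) the counts were 0 with spike-in size, 5 with DESeq2, 0 without a filter, 0 with a mean of 50 and 0 with female libraries (0 to 3). DESeq2 gave 1 call for the dm6 age interaction, 1 for transposons of 21 nt and 2 for those of 19 to 25 nt, where TMM gave 1. Features 2-fold apart without overlap numbered 26 in place of 40 for miRNAs and 225 in place of 430 for dm6 with a mean of 50, and 5 or 13 in place of 21 for transposons of 21 nt with spike-ins or reads of the class as denominator. Leaving out a library gave 70 to 101, 507 to 775 and 16 to 55. Hairpins without overlap numbered 10 in place of 17 with a mean of 100 reads (26 to 35 leaving out a library), and 21 nt shares 46 to 60 for miRNAs and 66 to 78 for transposons, alternatives chosen after seeing the data. With spike-in size the log2 fold change was 0.14 for bantam-5p, 0.67 for miR-2a-1-5p, 0.70 for miR-263a-5p and 0.53 for miR-957-3p. The cause of these changes was not tested, apart from the smaller number of libraries or features where these were left out.

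With the replicate number as a block there were 7 calls among miRNAs, 59 among dm6 transcripts and 1 among transposons of 19 to 25 nt, and no other count of calls moved. The labels do not pair the genotypes by number. The differences between replicates of the genotypes correlated at r = 0.68 over 208 miRNAs and 0.50 over 1566 transcripts, features that are not independent, and 2 pairs do not settle a pairing.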
